A study of Mus musculus with 16 samples.

Results

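The genes described here belong to the Wnt signalling pathway or are common targets of it. The members were a fixed set of 10 gene symbols, Wnt3, Lgr5, Notum, Dkk1, Ctnnb1, Axin2, Tcf7, Tcf7l1, Lef1 and Sp5, and each was measured by every probe set that carried its symbol and no other. Of the 10, 9 were measured, by 13 probe sets, among 12393 genes and 20380 such probe sets in all. Tcf7 had no probe set that met this rule in the annotation used and was not analysed here.

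Wnt proteins are secreted ligands that bind Frizzled receptors together with Lrp5 or Lrp6. Without a ligand, a destruction complex built on Axin and Apc marks beta-catenin for degradation; with a ligand, beta-catenin accumulates, enters the nucleus and turns genes on through DNA-binding proteins of the TCF/LEF family. In mouse embryonic stem (ES) cells the pathway supports self-renewal, and Tcf7l1, the most abundant member of that family there, represses pluripotency genes until beta-catenin relieves it. Several targets, such as Axin2, Notum and Dkk1, feed back to dampen the signal.

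The study perturbed Tgif1 and Tgif2, homeodomain proteins that repress transcription. Expression was read on Affymetrix Mouse 430A 2.0 arrays, in J1 ES cells of mouse grown on gelatin with serum and leukemia inhibitory factor, a medium that all groups shared. There were 16 arrays in 5 groups. A knockdown arm held 2 Tgif1 KD arrays and 2 shControl arrays (a control knockdown), and an overexpression arm held 4 arrays labelled Tgif1 OE, 4 labelled Tgif2 OE and 4 BirA control arrays (cells that overexpress BirA, a biotin ligase). The labels give no promoter or vector for the overexpressed genes, no clone and no time after the perturbation, and they do not say whether replicates came from separate cultures. The p-values therefore measure only the spread between these arrays, which may be technical. Values are log2 intensities, so a difference of 1 is a doubling of signal; "called" means an adjusted p under 0.05 over all 20380 probe sets, and values after ± are standard errors of a change unless an SD is named.

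The perturbed genes were read first. Tgif1 (1422286_a_at) fell by 3.39 ± 0.10 in the knockdown (adjusted p = 7.04e-11), while Tgif2 (1434400_at) rose by 0.81 ± 0.09 (adjusted p = 2.21e-05). Against its label, Tgif1 fell under Tgif1 OE, from 10.69 ± 0.04 on BirA control to 10.12 ± 0.10 (SD, n = 4; adjusted p = 7.51e-05), and on those labelled Tgif2 OE the Tgif2 probe set did not pass (0.00 relative to all probe sets, 0.11 as deposited). Whether these probe sets read the introduced genes is not known here, so both groups are named by their labels and no direction is drawn from the word overexpression. Column medians were 6.52 to 6.56 on the Tgif2 OE arrays and 6.41 to 6.51 on the other 12. The median shift over all probe sets was therefore taken off changes that involve the Tgif2 OE arrays where it exceeded 0.1 in size. This left changes "relative to all probe sets" (the shift was 0.110 against BirA control). In replicates 3 and 4 alone the shift against BirA control was 0.094 and was not taken off, so those changes are as deposited. ES cell markers stayed bright in every group: the mean of 10 such genes ran from 11.60 to 12.37 over the 16 arrays. A lower signal in such bulk RNA can come from fewer cells of a type or from less RNA per cell, which cannot be told apart.

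Stretches of 250 bases upstream of the annotated starts are shown for the members whose signal moved most and for Dkk1, whose signal did not pass in any comparison, to show which of them hold the letters that TCF/LEF and TGIF proteins are known to favour. They are RefSeq sequence of mouse build GRCm38.p6, written 5′ to 3′ on the gene's own strand. Capitals mark matches on either strand to the TCF/LEF core, which was taken as CTTTGAA or its variant CTTTGAT, and likewise as CTTTGTA or its variant CTTTGTT, and to the TGIF core CTGTCA.
Sp5, chr2:70474673-70474922, plus strand: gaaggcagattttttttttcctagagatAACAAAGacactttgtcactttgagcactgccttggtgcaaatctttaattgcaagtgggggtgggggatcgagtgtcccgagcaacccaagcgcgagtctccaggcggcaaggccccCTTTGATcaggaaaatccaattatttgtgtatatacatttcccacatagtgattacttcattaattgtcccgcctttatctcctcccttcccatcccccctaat
Lef1, chr3:131110047-131110296, plus strand: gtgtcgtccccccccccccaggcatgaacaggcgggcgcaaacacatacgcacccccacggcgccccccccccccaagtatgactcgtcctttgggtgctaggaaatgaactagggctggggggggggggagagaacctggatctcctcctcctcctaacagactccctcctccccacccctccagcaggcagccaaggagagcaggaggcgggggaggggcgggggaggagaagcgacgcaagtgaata
Tcf7l1, chr6:72789046-72789295, minus strand: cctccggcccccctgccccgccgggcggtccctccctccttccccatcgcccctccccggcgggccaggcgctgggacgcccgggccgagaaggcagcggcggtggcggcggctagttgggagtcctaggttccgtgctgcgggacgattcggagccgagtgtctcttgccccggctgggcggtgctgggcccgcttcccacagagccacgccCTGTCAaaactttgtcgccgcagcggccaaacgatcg
Dkk1, chr19:30549497-30549746, minus strand: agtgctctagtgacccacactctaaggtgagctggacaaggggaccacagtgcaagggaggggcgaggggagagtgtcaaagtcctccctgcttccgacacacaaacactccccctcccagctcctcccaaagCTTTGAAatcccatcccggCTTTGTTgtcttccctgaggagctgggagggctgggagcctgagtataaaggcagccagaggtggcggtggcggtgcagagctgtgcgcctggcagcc

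Sp5 carried a TCF/LEF core on each strand, CTTTGAT at position -104 and CTTTGTT on the reverse strand at -222, counted from the start. Dkk1 carried CTTTGAA at -117 and CTTTGTT at -98. Tcf7l1 held CTGTCA at -37 and no TCF/LEF core. The Lef1 window shown held neither motif; of its 4 annotated starts, 1 lies downstream at a window from chr3:131156044 that held CTTTGTA on the reverse strand at -147 and CTGTCA at -223. Wnt3 held CTTTGTT at 19, inside the gene, and CTGTCA on the reverse strand at -150, while Axin2, Ctnnb1 and Tcf7 held none. Among 32851 promoters of 300 bases (250 before to 50 after the start), 16.9% held a TCF/LEF core and 19.2% the TGIF core. Such a match is a description of the letters and not of binding. Notum and Lgr5 had no entry in the promoter table.

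Across the comparisons, different members carried the change. In the knockdown 4 of the 13 probe sets were called, 1 higher (Ctnnb1) and 3 lower (Notum and both probe sets of Tcf7l1), against 23.0% of all probe sets. On the arrays labelled Tgif1 OE 4 were called, Sp5 and Lef1 higher and 2 Ctnnb1 probe sets lower, against 18.7%. On those labelled Tgif2 OE 4 were called, Wnt3, Lef1 and 1 Tcf7l1 probe set higher and 1 Ctnnb1 probe set lower, against 24.1%. The median change of the 13 was -0.12, 0.06 and 0.03 in these 3 comparisons, where the medians of all probe sets were -0.042, 0.004 and, by construction, 0. A count of 4 in 13 is 30.8%, close enough to each background that the number of members called is not itself a result. Both overexpression comparisons share the 4 BirA control arrays, so their values are given side by side and not as separate support.

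**Figure D1:**
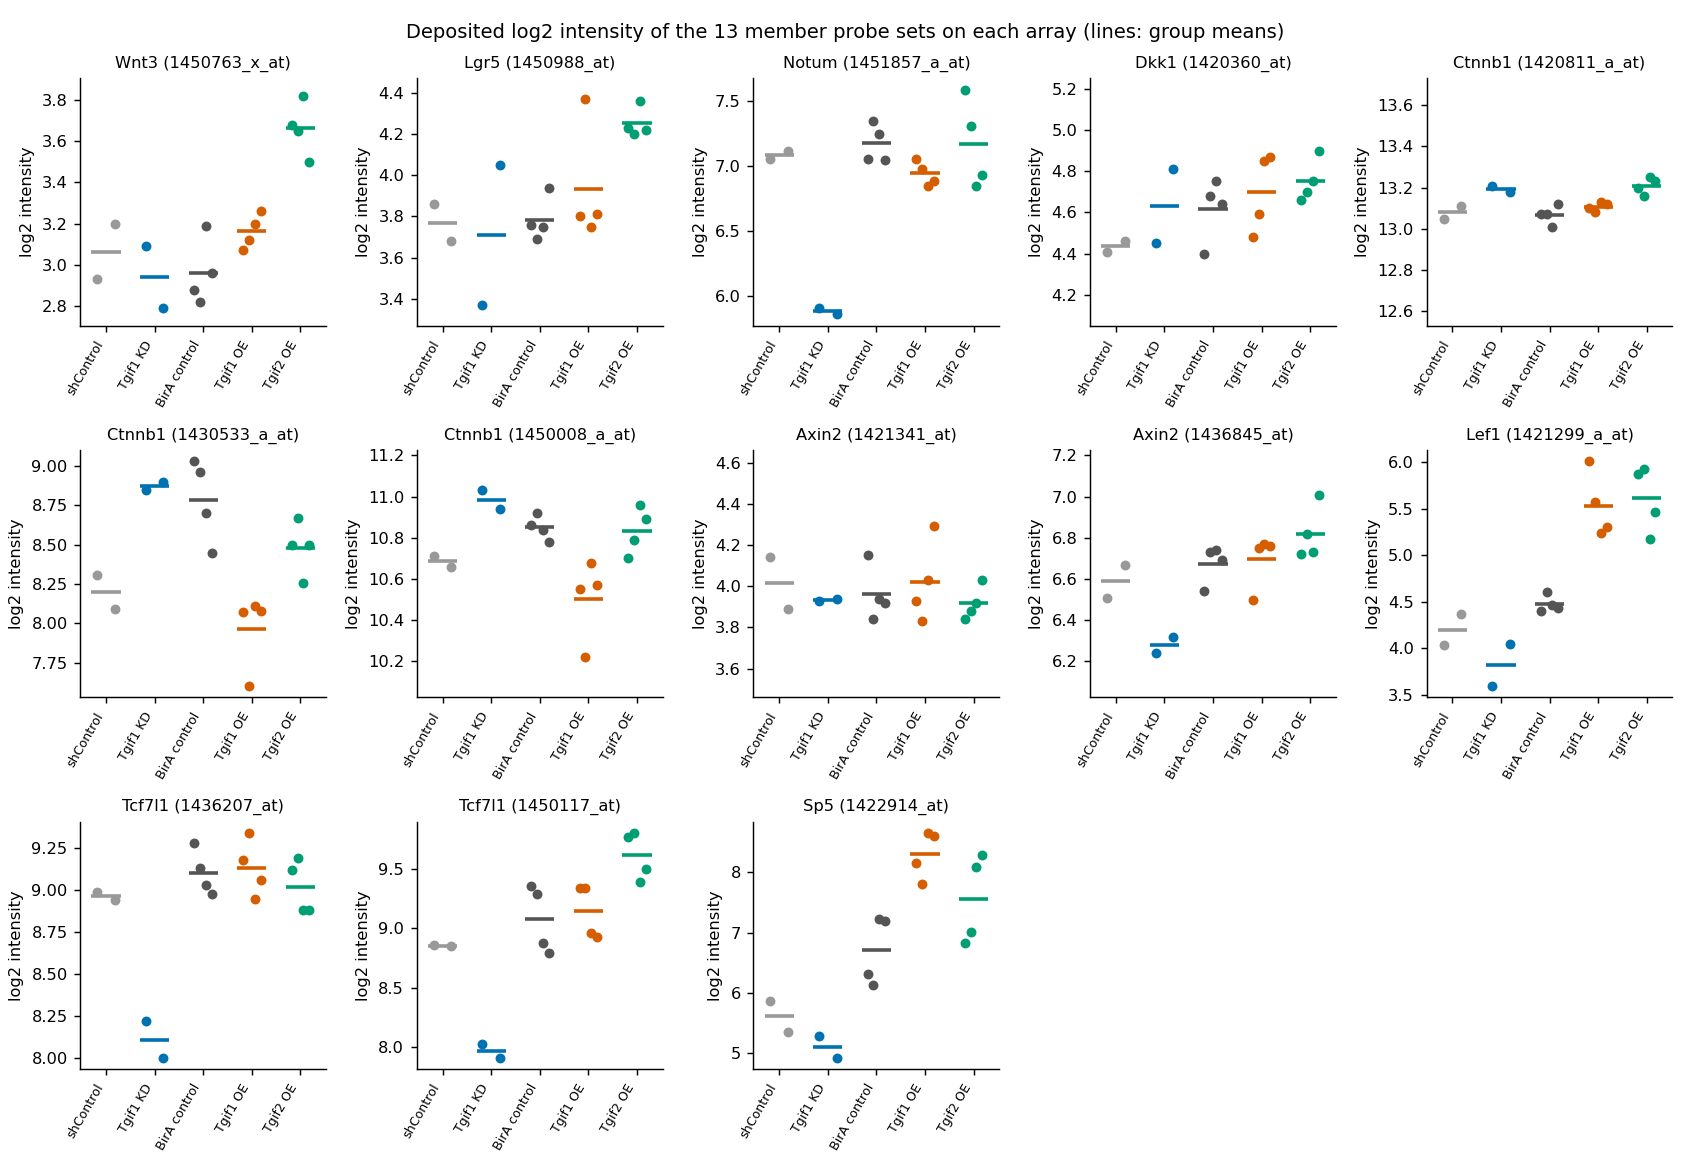
Deposited log2 intensity (vertical axis, its range differing between panels) of the 13 member probe sets on each of the 16 arrays, 1 panel per probe set, with points for arrays and a line at each group mean. Notum and both Tcf7l1 probe sets sit lowest on the 2 Tgif1 KD arrays, and Sp5 and Lef1 sit higher on the 4 arrays labelled Tgif1 OE than on any BirA control array.

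The ligand came first in the pathway order. Wnt3 (1450763_x_at; chr11:103774175-103818021 in GRCm38.p6), a ligand needed to form the primitive streak, was one of the dimmer probe sets. Its values ran from 2.79 to 3.82, where all values on the arrays ran from 2.19 to 14.79. Whether so low a signal shows Wnt3 RNA was not tested. Wnt3 gave 3.68, 3.65, 3.82 and 3.50 on the arrays labelled Tgif2 OE against 2.88, 2.82, 3.19 and 2.96 on BirA control. The groups did not overlap, and the rise was 0.59 ± 0.10 relative to all probe sets (1.51-fold, adjusted p = 0.000539; 0.70 as deposited). It kept that call when any single array was left out (highest adjusted p 0.00247). The rise was 0.69 in replicates 1 and 2 and, as deposited, 0.58 in replicates 3 and 4. Arrays labelled Tgif1 OE gave 3.07 to 3.26 (0.20 ± 0.10, adjusted p = 0.19), overlapping the controls. On Tgif1 KD arrays Wnt3 gave 3.09 and 2.79 against 2.93 and 3.20 on shControl (-0.12, 95% interval -0.42 to 0.18).

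Lgr5 (1450988_at; chr10:115450314-115587780) encodes a receptor for R-spondins, which strengthen Wnt signalling. It too was dim. Its highest group was the arrays labelled Tgif2 OE, with 4.23, 4.20, 4.36 and 4.22 against 3.76, 3.69, 3.75 and 3.94 on BirA control. Those groups did not overlap, yet the change of 0.36 ± 0.14 did not pass (adjusted p = 0.0873), and it passed as deposited (0.47, adjusted p = 0.0223). With the replicate number as a block it did not pass (0.355, adjusted p = 0.0882), and with replicates 1-2 and 3-4 as a random block it did (0.355, adjusted p = 0.0451). On arrays labelled Tgif1 OE, replicate 2 gave 4.37 and the other 3 gave 3.75 to 3.81 (0.15, adjusted p = 0.557). The Tgif1 KD arrays read 3.37 and 4.05, spanning the shControl values of 3.86 and 3.68.

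Among the inhibitors, Notum moved in the knockdown. Notum (1451857_a_at; chr11:120653788-120661193) is a secreted enzyme that removes the lipid which Wnt ligands need to signal. It gave 5.91 and 5.86 on Tgif1 KD arrays against 7.06 and 7.12 on shControl, a fall of 1.21 on the log2 scale (± 0.19, 2.31-fold, adjusted p = 0.000237). Neither group came near the other, and no single array ended the call (highest adjusted p 0.00397). BirA control arrays gave 7.06, 7.35, 7.25 and 7.05, which the arrays labelled Tgif1 OE overlapped at 7.06, 6.98, 6.85 and 6.89 (-0.23 ± 0.13, adjusted p = 0.274). Arrays labelled Tgif2 OE were split by replicate number, at 7.59 and 7.31 for replicates 1 and 2 and 6.85 and 6.93 for replicates 3 and 4 (-0.12, adjusted p = 0.573). Within replicates 3 and 4 alone Notum was lower in both groups, by -0.27 (adjusted p = 0.0348) and -0.26 (adjusted p = 0.0306), the latter as deposited.

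Dkk1 (1420360_at; chr19:30545876-30549496), a secreted protein that blocks the Lrp co-receptors, was dim and passed nowhere. Its 16 values ran from 4.40 to 4.90. The intervals of its change were -0.12 to 0.51 in the knockdown, -0.15 to 0.31 on arrays labelled Tgif1 OE and -0.20 to 0.25 on those labelled Tgif2 OE. These bounds are all under a doubling.

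Ctnnb1 (chr9:120933400-120960507) encodes beta-catenin, which carries the Wnt signal and also links cadherins to the cytoskeleton. Its 3 probe sets did not move alike. The brightest, 1420811_a_at, stayed within 13.01 to 13.25 on all arrays and passed in no comparison, except as deposited on the arrays labelled Tgif2 OE (0.145, adjusted p = 0.0318). By contrast 1430533_a_at gave 8.85 and 8.90 on Tgif1 KD arrays against 8.31 and 8.09 on shControl (0.67 ± 0.19, adjusted p = 0.0199). That call was lost without Tgif1 KD replicate 1 (0.0762), without Tgif1 KD replicate 2 (0.0966) and without shControl replicate 2 (0.149). The remaining probe set, 1450008_a_at, gave 11.03 and 10.94 against 10.71 and 10.66, a difference of 0.30 ± 0.12 that did not pass (adjusted p = 0.1).

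The direction was the other one on the arrays labelled Tgif1 OE. There 1430533_a_at of Ctnnb1 gave 8.07, 7.60, 8.11 and 8.08 against 9.03, 8.96, 8.70 and 8.45 on BirA control. Every array labelled Tgif1 OE lay below every control, and the change was -0.82 ± 0.14 (1.77-fold lower, adjusted p = 0.000594). It was larger in replicates 1 and 2 (-1.16) than in replicates 3 and 4 (-0.48), a difference between the pairs that was not tested. Similarly 1450008_a_at was lower, at 10.55, 10.22, 10.68 and 10.57 against 10.86, 10.92, 10.84 and 10.78 (-0.35 ± 0.09, adjusted p = 0.0116), though not in replicates 3 and 4 alone (-0.19, adjusted p = 0.0824). Arrays labelled Tgif2 OE overlapped the controls at 8.50, 8.67, 8.26 and 8.50 for 1430533_a_at (-0.42 ± 0.14, adjusted p = 0.0377). This last call was lost as deposited (-0.31, adjusted p = 0.101) and in replicates 3 and 4 alone, also as deposited (-0.20, adjusted p = 0.214). It was lost too without BirA control replicate 1 (0.118) or 2 (0.109) or Tgif2 OE replicate 1 (0.0641), 3 (0.111) or 4 (0.0645). The summed change of the gene's transcripts is not given by 3 probe sets that disagree.

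Axin2 (chr11:108917828-108950783) encodes a scaffold of the destruction complex and is the most widely used Wnt target gene. The brighter of its probe sets, 1436845_at, gave 6.24 and 6.32 on Tgif1 KD arrays against 6.51 and 6.67 on shControl. Those values do not overlap, but the change of -0.31 ± 0.12 did not pass (adjusted p = 0.0705; range 0.0183 to 0.352 over 11 alternatives). No shift was detectable on the arrays labelled Tgif1 OE (0.02, interval -0.16 to 0.19) or Tgif2 OE (0.03, interval -0.14 to 0.21). Its dim probe set 1421341_at ran from 3.83 to 4.29 over all arrays and passed in no comparison.

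Tcf7l1 (chr6:72626371-72789045), the repressive TCF factor of ES cells, fell in the knockdown on both of its probe sets. For 1436207_at the Tgif1 KD arrays gave 8.22 and 8.00 and the shControl arrays 8.99 and 8.94 (-0.86 ± 0.14, 1.82-fold, adjusted p = 0.000403). The second, 1450117_at, gave 8.03 and 7.91 against 8.86 and 8.85 (-0.89 ± 0.20, 1.85-fold, adjusted p = 0.00436). All KD values lay below all control values, and both calls held without any single array (highest adjusted p 0.00909 and 0.0402). No change passed on arrays labelled Tgif1 OE (0.03, interval -0.19 to 0.24, and 0.06, interval -0.24 to 0.36).

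On arrays labelled Tgif2 OE the Tcf7l1 probe sets parted. There 1450117_at gave 9.77, 9.80, 9.39 and 9.50 against 9.36, 9.29, 8.88 and 8.79 on BirA control (0.42 ± 0.14, adjusted p = 0.0415). The change was 0.34 in replicates 1 and 2 and, as deposited, 0.61 in 3 and 4. Leaving out BirA control replicate 3 (0.117) or 4 (0.124) ended that call, as did leaving out Tgif2 OE replicate 1 (0.102), 2 (0.107) or 4 (0.0515). The same arrays gave 9.12, 9.19, 8.88 and 8.88 for 1436207_at against 9.28, 9.13, 9.03 and 8.98 (-0.20 ± 0.10, adjusted p = 0.17), and with the replicate number as a block this fall passed (-0.20, adjusted p = 0.0288). No common direction can be given for the gene there.

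Lef1 (1421299_a_at; chr3:131110297-131224357), a TCF/LEF factor that is itself a Wnt target, rose on both sets of arrays of the overexpression arm. BirA control arrays gave 4.40, 4.61, 4.47 and 4.43, a dim level. The arrays labelled Tgif1 OE gave 6.01, 5.57, 5.24 and 5.30 (1.05 ± 0.18, 2.08-fold, adjusted p = 0.000868). Those labelled Tgif2 OE gave 5.88, 5.93, 5.18 and 5.47 (1.02 ± 0.18 relative to all probe sets, 2.03-fold, adjusted p = 0.000881; 1.14 as deposited). No treated array overlapped a control. The rise was 1.28 and 1.27 in replicates 1 and 2, and 0.82 and 0.87 (the latter as deposited) in replicates 3 and 4. It was called in each pair. In the knockdown, Lef1 gave 3.59 and 4.04 against 4.03 and 4.37 on shControl, overlapping and short of the threshold (-0.38 ± 0.26, adjusted p = 0.333).

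Sp5 (1422914_at; chr2:70474923-70477726) encodes a zinc finger factor that Wnt signalling induces directly. The arrays labelled Tgif1 OE gave 8.15, 7.81, 8.65 and 8.61 against 6.32, 6.13, 7.22 and 7.20 on BirA control. All 4 lay above all controls, a rise of 1.59 ± 0.34 (3.01-fold, adjusted p = 0.00386) that reached 1.76 in replicates 1 and 2 and 1.42 in 3 and 4. The arrays labelled Tgif2 OE gave 6.83, 7.01, 8.09 and 8.29, which overlapped the controls because both groups were higher in replicates 3 and 4. That difference was 0.73 ± 0.34 (adjusted p = 0.139), and it passed once the replicate number was a block (0.725 ± 0.122, adjusted p = 0.000936). Within pairs it was 0.56 in replicates 1 and 2 (adjusted p = 0.0712) and 0.98 in 3 and 4 (adjusted p = 0.00293), the latter as deposited. Knockdown arrays gave 5.29 and 4.92 against 5.87 and 5.35 on shControl (-0.51 ± 0.48, adjusted p = 0.5).

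**Figure D2:**
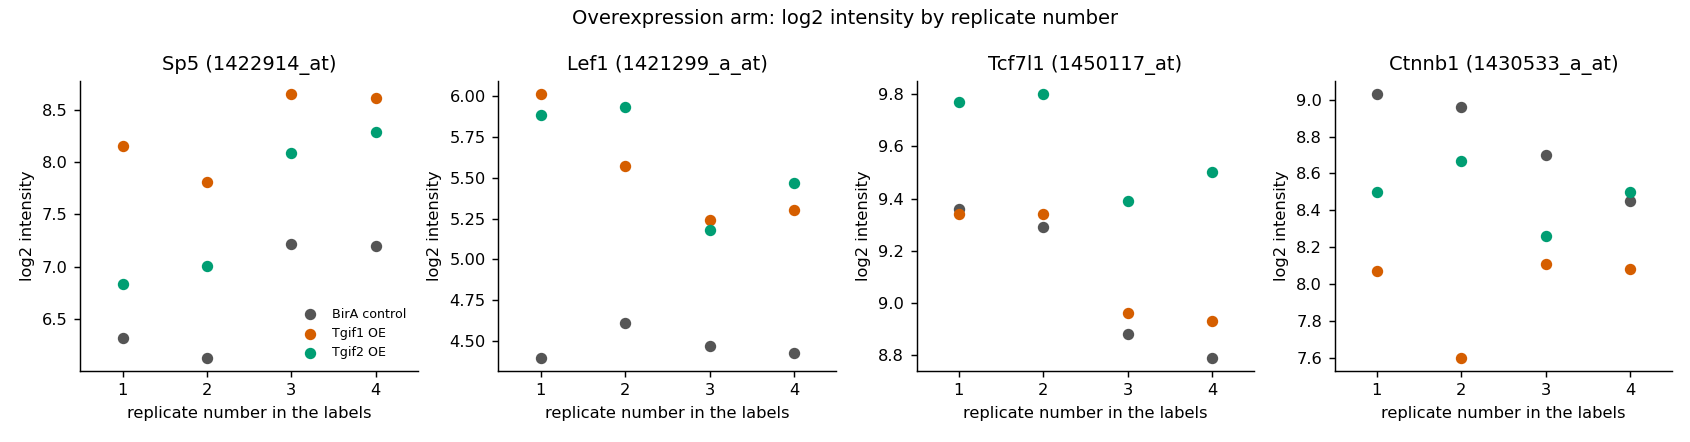
Deposited log2 intensity (vertical axis, its range differing between panels) by replicate number in the labels for Sp5, Lef1, Tcf7l1 and Ctnnb1, with 1 point per array of BirA control, Tgif1 OE and Tgif2 OE. For Sp5 replicates 3 and 4 sit above 1 and 2 in each group (7.22 and 7.20 against 6.32 and 6.13 on BirA control), while for Lef1 on BirA control the numbers interleave (4.47 and 4.43 against 4.40 and 4.61).

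The order of group means was read for the members that moved, with the limit that the sources used here do not say whether all 16 arrays were normalized together. For Sp5 it ran from Tgif1 KD (5.10) through shControl (5.61), BirA control (6.72) and Tgif2 OE (7.56) to Tgif1 OE (8.31). The last 3 overlapped with their neighbours, and the controls of the arms did not overlap each other. For Lef1 the order was Tgif1 KD (3.82), shControl (4.20), BirA control (4.48), Tgif1 OE (5.53) and Tgif2 OE (5.61). Tgif1 KD and shControl overlapped, as did the highest pair. The means are as deposited, with the shift of the Tgif2 OE arrays left in. Relative to all probe sets, Lef1 was 0.03 higher on the arrays labelled Tgif1 OE than on those labelled Tgif2 OE (interval -0.36 to 0.42). For Notum the Tgif1 KD arrays (5.89) stood below all others, whose means were 6.95 to 7.18.

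**Figure D3:**
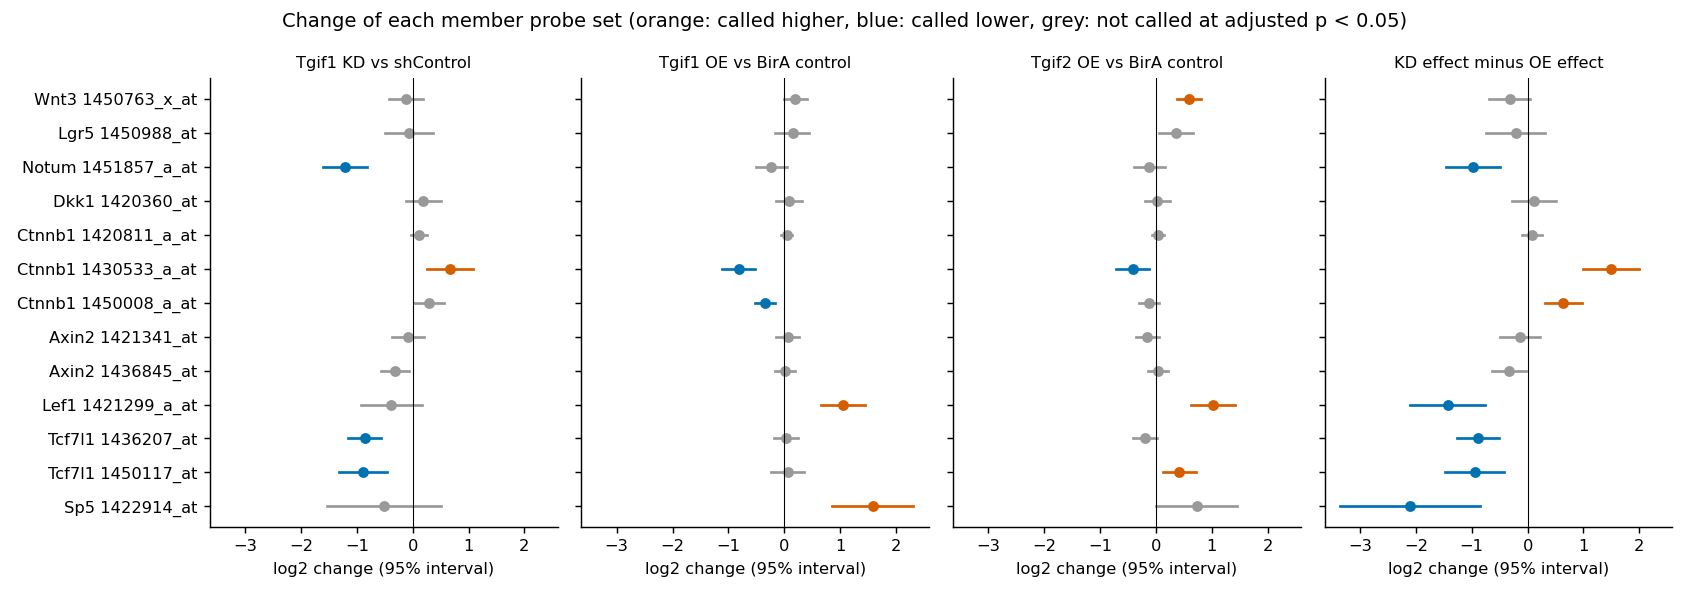
Change in log2 intensity (horizontal axis) of each member probe set with its 95% interval in 4 comparisons; orange marks called higher, blue called lower and grey not called. In the knockdown Notum and Tcf7l1 lie below 0 and on the arrays labelled Tgif1 OE Sp5 and Lef1 lie above it, and the last panel shows the difference between these effects.

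Knockdown and Tgif1 OE effects share no arrays, so their difference could be tested directly. It was called for 7 of the 13 member probe sets, 2 higher and 5 lower, against 25.3% of all probe sets. This is a share of 53.8%, with a median of -0.32. Ctnnb1 and Tcf7l1 gave 2 of these calls each, and with 1 probe set per gene 4 of 9 members were called. The members were chosen with earlier results of these data known, so this share is not itself a result. Relative to the Tgif1 OE effect the knockdown effect was lower for Sp5 (-2.10 ± 0.59, adjusted p = 0.0157), Lef1 (-1.43 ± 0.32, adjusted p = 0.00364), Notum (-0.98 ± 0.23, adjusted p = 0.00507) and both Tcf7l1 probe sets (-0.89 ± 0.17 and -0.95 ± 0.24). It was higher for Ctnnb1 (1.49 ± 0.24 at 1430533_a_at, adjusted p = 0.000262, and 0.64 ± 0.15 at 1450008_a_at, adjusted p = 0.00545). These differences have unlike makeups. For Tcf7l1 the larger part is the change in the knockdown. For Sp5 and Lef1 it is the change on the arrays labelled Tgif1 OE. For Notum both estimates were falls, -1.21 in the knockdown and -0.23 (not called) on the arrays labelled Tgif1 OE. The Sp5 difference lost its call without Tgif1 KD replicate 2 (0.0721) or shControl replicate 1 (0.08).

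In the direct comparison of both overexpression labels, Tgif1 OE against Tgif2 OE, only Wnt3 was called among the 13, against 8.47% of all probe sets. Its dim probe set was lower on the arrays labelled Tgif1 OE (-0.39 ± 0.10, adjusted p = 0.0248). That call was lost without Tgif1 OE replicate 1 (0.0653) or 2 (0.0598) or Tgif2 OE replicate 1 (0.0589), 2 (0.0541) or 3 (0.0676). Lef1 differed by 0.03 (interval -0.36 to 0.42). Sp5 was 0.86 ± 0.34 higher on the arrays labelled Tgif1 OE and did not pass (adjusted p = 0.134). With the replicate number as a block 4 members were called: Sp5 (0.861, adjusted p = 0.00131), Wnt3 and both Tcf7l1 probe sets in opposite directions (-0.364, adjusted p = 0.00214, and 0.225, adjusted p = 0.032).

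The rest of the pathway was read from lists of genes, each by its brightest probe set. In the knockdown, 12.1% of all 12393 genes were called higher and 12.4% lower, with a median of -0.045. Of 20 Wnt ligand and secretion genes, 1 rose and 1 fell. Wnt5a, a ligand that mostly signals without beta-catenin, rose by 1.39 ± 0.23 (adjusted p = 0.000402, its other probe set 1.98). Wnt7b fell (-0.42, its other probe set -0.23 and not called). Of 17 measured receptor and R-spondin genes 2 rose and 3 fell. The Frizzled receptor genes Fzd7 (0.64, its other probe set -0.36) and Fzd6 (0.55, its other probe set 0.16 and not called) were higher. Fzd3 (-0.75, its other probe sets -0.05 to -0.01) was lower. Without Tgif1 KD replicate 1 or shControl replicate 1 only 1 gene of this list was lower. Among 14 inhibitors Apcdd1, a membrane protein that binds Wnt and Lrp5, rose by 1.34 ± 0.11 (adjusted p = 6.79e-07; 0.96 to 1.34 over 4 probe sets), and Wif1, a secreted Wnt-binding protein, fell (-0.53). The call of Wnt7b was lost without Tgif1 KD replicate 1 (0.0739) and that of Wif1 without Tgif1 KD replicate 2 (0.0921), shControl replicate 1 (0.0557) or shControl replicate 2 (0.0681).

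Further down the pathway, 4 of 17 cytoplasmic genes rose and 2 fell (median -0.09), with the kinase genes Csnk1e (0.72 ± 0.12) higher and Csnk1g1 (-0.77 ± 0.24) lower; leaving out any 1 of the 4 arrays ended the latter call (0.0645 to 0.162). Only 2 were higher without Tgif1 KD replicate 1, shControl replicate 1 or shControl replicate 2, and 0 were lower without any 1 of these (1 without Tgif1 KD replicate 2). Of 16 nuclear partners of beta-catenin 0 rose and 1 fell, Ctnnbip1, an inhibitor of beta-catenin binding to TCF (-0.36; lost without Tgif1 KD replicate 2, 0.065, or shControl replicate 1, 0.058). Of 17 other Wnt targets 1 rose and 3 fell (median -0.08). The growth regulator genes Myc (-1.07 ± 0.11, adjusted p = 5.68e-06) and Ccnd1 (-1.06 ± 0.14, adjusted p = 7.19e-05; -1.17 to -0.95 over 3 probe sets) fell, while Tnfrsf19, a receptor of the TNF family, rose (0.80; its other probe sets 0.39 and 0.01). Of 7 cadherin and catenin partners 0 rose and 3 fell: Cdh1, which encodes E-cadherin (-1.11 ± 0.08, adjusted p = 3.87e-07), Cdh2, which encodes N-cadherin (-0.66), and Ctnnal1 (-0.54). The Cdh2 call was lost without Tgif1 KD replicate 2 (0.161), shControl replicate 1 (0.0972) or shControl replicate 2 (0.072).

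Of 10 pluripotency genes known to be bound by Tcf7l1, only Tcl1 was called (0.73, adjusted p = 0.021), with a list median of 0.19, and without any 1 of the 4 arrays it was not (0.0763 to 0.104). The 5′ minus 3′ signal of the Gapdh and Actb controls, a measure of RNA quality, was -0.09 and -0.51 on Tgif1 KD arrays and -0.21 and -0.64 on shControl, with each Tgif1 KD array above each shControl array. Its part in the knockdown results was not tested. Of 10 ES cell markers 2 rose and 0 fell there, of 15 fibroblast markers 2 rose and 1 fell, of 8 blood markers 1 rose, and of 11 primitive streak and mesoderm markers 1 rose and 2 fell.

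**Figure D4:**
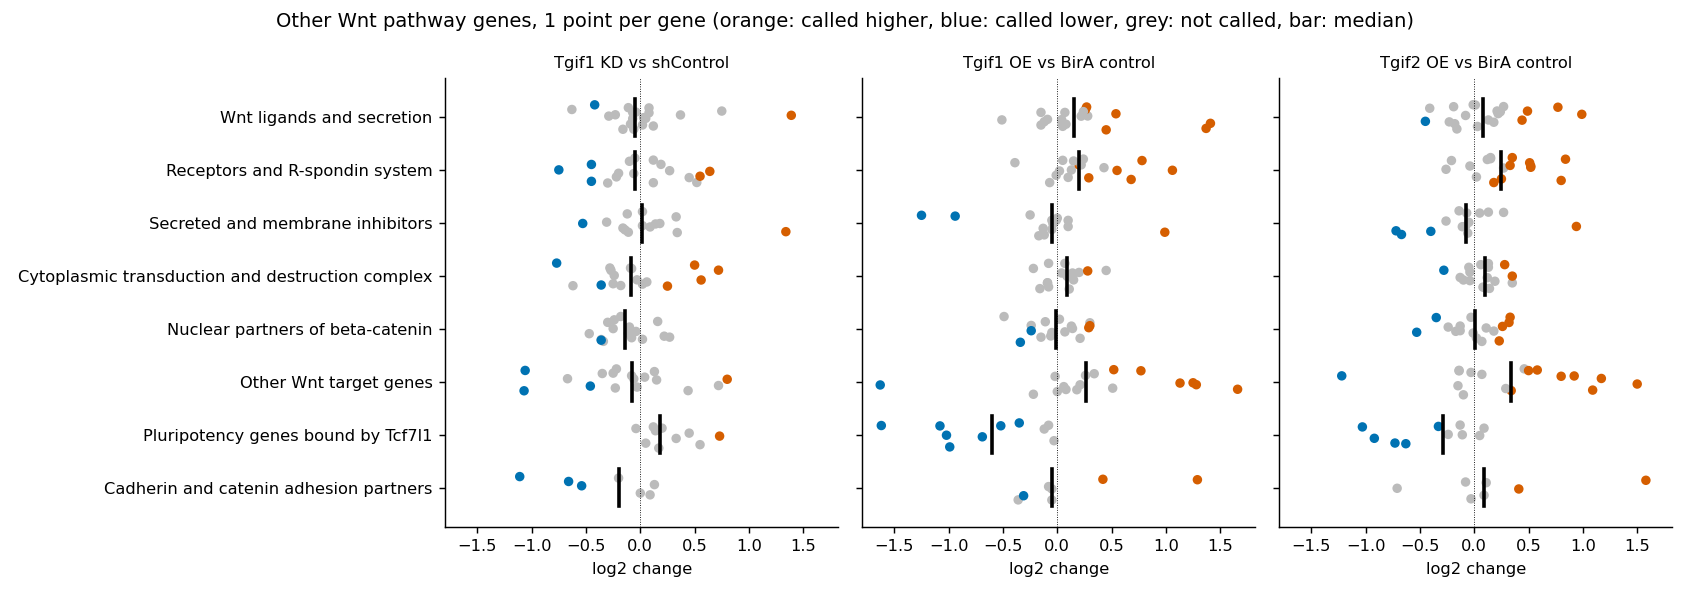
Change in log2 intensity (horizontal axis, shared by the 3 panels) of the other pathway genes by list, 1 point per gene; orange marks called higher, blue called lower, grey not called, and the black bar the list median. On the arrays labelled Tgif1 OE the median of the pluripotency genes bound by Tcf7l1 is -0.60 and that of the other Wnt targets 0.26.

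On the arrays labelled Tgif1 OE, 10.9% of all genes were called higher and 8.99% lower, with a median of 0.015. Ligands and receptors were called higher: 6 of 20 ligand and secretion genes rose and 0 fell (median 0.15), and 6 of 17 receptor and R-spondin genes rose and 0 fell (median 0.20). With single arrays left out the number of ligand genes called ranged from 3 (without Tgif1 OE replicate 4) to 6. Wnt4, a ligand of several developing tissues, rose by 1.41 ± 0.20 (adjusted p = 0.00021), and Wls, which carries Wnt proteins to the cell surface, by 1.37 ± 0.28 (adjusted p = 0.00319; its other probe sets 1.78 and 0.34). The receptor genes Fzd2 (1.06 ± 0.09, adjusted p = 1.95e-06; 1.03 to 1.35 over 3 probe sets) and Fzd6 (0.78) rose, as did the R-spondin gene Rspo1 (0.68). Wnt5a (0.54, adjusted p = 0.0302) and Fzd7 (0.55, adjusted p = 0.000257), both higher in the knockdown, were also higher here. Their other probe sets were not called (0.32 and -0.04). The Wnt5a call was lost without Tgif1 OE replicate 1, 3 or 4 or BirA control replicate 2 or 3. Of the 14 inhibitors 1 rose and 2 fell, Sfrp2 at 0.99 ± 0.15 and Sfrp1 at -0.94 ± 0.13, both secreted Frizzled-like proteins, and Shisa2, which holds Frizzled inside the cell, at -1.25 ± 0.19.

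Cytoplasmic genes of the pathway were mostly not called on these arrays, with 1 of 17 higher, Nkd2 (0.28, adjusted p = 0.0498, lost in 12 of its alternatives). Of 16 nuclear partners 2 rose and 2 fell, all by less than 0.5: Ctbp1 (0.30) and Ctnnbip1 (0.29) were higher, and Tcf7l2 (-0.34) and Crebbp (-0.24) lower. With single arrays left out 0 to 3 were lower, with 0 without Tgif1 OE replicate 3. Leaving out any 1 array other than Tgif1 OE replicate 1 ended the Tcf7l2 call (0.0778 to 0.137). Of 17 other targets 6 rose and 1 fell: the AP-1 gene Jun (1.66 ± 0.22, adjusted p = 9.45e-05) and Id2, an inhibitor of differentiation (1.28 ± 0.26; 0.21 at 1 of its other probe sets), were higher, and Tbx3 was lower (-1.63 ± 0.33; its other probe set -0.15). Of 10 pluripotency genes bound by Tcf7l1, 0 rose and 7 fell (median -0.60), led by Tcl1 (-1.62 ± 0.15), the nuclear receptor gene Esrrb (-1.08 ± 0.22) and Nr0b1 (-1.02 ± 0.11). Of 7 cadherin and catenin partners 2 rose, Cdh2 (1.29 ± 0.13) and Cdh1 (0.42), and 1 fell (median -0.05).

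The arrays labelled Tgif2 OE, set beside the same controls, gave 13.8% of all genes higher and 12.0% lower, with a median of 0.009. Receptor genes were called higher in 9 of 17 (0 lower, median 0.25; 7 to 8 with single arrays left out), with Fzd2 (0.84 ± 0.09) and Fzd6 (0.80) first. Ligand genes gave 4 higher and 1 lower of 20. Only 2 were higher without BirA control replicate 2 or Tgif2 OE replicate 3 or 4, and 0 were lower without any 1 of those or without BirA control replicate 1 or 4. Among the higher were Wls at 0.99 (lost without BirA control replicate 2, 0.0543, or Tgif2 OE replicate 3, 0.0626, or 4, 0.0667), Wnt4 at 0.77 and Wnt7b at 0.49. The other Wls probe sets gave 1.44 (adjusted p = 0.000627) and 0.31 (adjusted p = 0.103). Inhibitors gave 1 higher, Sfrp2 (0.94), and 3 lower of 14, among them Shisa2 (-0.72, and -0.248 with adjusted p = 0.202 in replicates 1 and 2 alone) and Sfrp1 (-0.67). Cytoplasmic genes gave 2 higher and 1 lower of 17, and nuclear partners 4 higher and 2 lower of 16, none beyond 0.6 in size; 1 nuclear partner was lower without BirA control replicate 1 or 2 or Tgif2 OE replicate 3 or 4, and 0 cytoplasmic genes without BirA control replicate 3 or 4 or Tgif2 OE replicate 4. Other targets gave 8 higher and 1 lower of 17 (median 0.34), with Jun at 1.5, Id2 at 1.17 and Tbx3 at -1.22. The genes bound by Tcf7l1 gave 0 higher and 5 lower of 10 (median -0.29), with Tcl1 at -1.03, Nr0b1 at -0.92 and Esrrb at -0.73. This count was 3 without Tgif2 OE replicate 3 or 4 (3 to 6 over all single arrays). Esrrb no longer passed when BirA control replicate 1 (0.075) or 2 (0.0704) was left out, or Tgif2 OE replicate 3 (0.0882) or 4 (0.0834). Of 7 cadherin and catenin partners 2 rose and 0 fell (median 0.09), with Cdh2 at 1.58 ± 0.13.

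Markers of other cells moved in this arm too. Of 15 embryonic fibroblast markers 7 rose and 1 fell on the arrays labelled Tgif1 OE, and 3 rose and 0 fell on those labelled Tgif2 OE. Their mean level was 5.92 to 6.28 and 5.84 to 6.22 over those arrays against 5.41 to 5.66 on BirA control. Tagln rose most, from 7.01 on BirA control to 10.5 on arrays labelled Tgif1 OE and 9.59 on those labelled Tgif2 OE. Acta2 came next (5.66 to 7.41 and 7.32). On arrays labelled Tgif1 OE others were flat or lower, such as Col1a1 (4.32 to 4.48), Pdgfra (3.67 to 3.62), Vim (10.33 to 9.99) and Fn1 (11.38 to 11.18). The mean of the ES cell markers was 11.60 to 11.87 on Tgif1 OE, 11.87 to 12.16 on Tgif2 OE and 11.92 to 12.11 on BirA control arrays. Of these 10 markers 0 rose and 4 fell on the arrays labelled Tgif1 OE, and 0 rose and 2 fell on those labelled Tgif2 OE. Some of them, such as Nanog and Esrrb, are also in the list of genes bound by Tcf7l1. Of 8 blood markers 0 rose and 2 fell, then 1 rose and 2 fell; of 11 primitive streak and mesoderm markers 0 rose and 0 fell, then 2 rose and 1 fell. Their part in the changes of Sp5, Lef1, Wnt3 and Ctnnb1 was not tested.

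Between the sets of overexpression arrays 4.54% of genes were called higher and 4.26% lower, with 0 to 2 genes called per list in either direction; 2 of 10 genes bound by Tcf7l1 were lower on arrays labelled Tgif1 OE, Tcl1 (-0.59) and Tfcp2l1 (-0.36). The Tfcp2l1 call was lost with the replicate number as a block (-0.362, adjusted p = 0.0512), and both were lost without Tgif1 OE replicate 3 (0.0728 and 0.101) or 4 (0.0738 and 0.106) or Tgif2 OE replicate 1 (0.0742 and 0.0944) or 2 (0.0771 and 0.102). Tfcp2l1 was also lost without Tgif1 OE replicate 2 (0.0621) or Tgif2 OE replicate 3 (0.0545). The difference between knockdown and Tgif1 OE effects was called higher for 12.5% of genes and lower for 14.1%, with a median of -0.063. It was lower for 8 and higher for 1 of 17 other Wnt targets (median -0.58), including Id2 (-1.95 ± 0.44) and Jun (-1.51 ± 0.38; lost without Tgif1 KD replicate 2, 0.0569), with Tbx3 higher (2.34 ± 0.57). Without Tgif1 KD replicate 2 the lower count was 5 (5 to 9 over all single arrays) and the higher count 2. It was higher for 7 and lower for 0 of the 10 genes bound by Tcf7l1 (median 0.85), with Tcl1 at 2.35 ± 0.26. These lists were chosen with earlier results of these data known.

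Likeness over the 16 arrays was measured by Pearson's r, with each member read by its brightest probe set. On that reading Lef1 and Tcf7l1 were called in 3 comparisons each, and Sp5 in 2, tied with Wnt3 and Notum but with the widest range of group means (3.21). Ctnnb1 was called in 4 comparisons at 1430533_a_at but in 0 at its brightest probe set, whose nearest genes were Sypl (0.906), Rmnd5a (0.899) and Tjp1 (0.897). For Sp5 the nearest genes were Sema3e (0.986), Tpm2 (0.965) and Skil (0.964). For Lef1 they were Mrpl54 (0.962), Tapbpl (0.959) and Prdx4 (0.952), and for Tcf7l1 (1450117_at) they were Pcgf6 (0.98), Asb6 (0.98) and Rnmt (0.979). Among the members, r with Notum was 0.83 for 1450117_at of Tcf7l1 and 0.88 for its other probe set, 1436207_at. Lef1 gave 0.8 with 1450117_at of Tcf7l1 and 0.73 with Sp5. Between the Ctnnb1 probe sets 1430533_a_at and 1450008_a_at r was 0.84. The arrays share groups, arms and normalization, so these values describe the pattern over groups and are given without a test.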

How the data were processed

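RNA of 16 samples of J1 ES cells was read on Affymetrix arrays. The deposited values are log2 intensities, made by the authors with RMA per the submitters' processing notes, which also name limma; versions were not given in the sources used here. Probe sets took their genes from GEO's platform annotation: of 22690, 20380 had 1 symbol, 691 several, 1555 none and 64 were controls.

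From these values limma 3.58.1 (R 4.3.3) fitted 1 mean per group, with the 16 arrays in 1 model. Changes were tested with moderated statistics and Benjamini-Hochberg adjustment over 20380 probe sets, and called at an adjusted p under 0.05. Where the median change of all probe sets exceeded 0.1 in size it was subtracted (0.110 for Tgif2 OE against BirA control, -0.109 for Tgif1 OE against Tgif2 OE). Other pathway genes were named by rule: up to 3 called genes per list and comparison with the largest change, each by its brightest probe set. The members and lists were chosen with earlier results of these data known. The script was tested on simulated data. Arrays give no read depth; their number limits the precision.

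In the overexpression arm, arrays with the same replicate number deviated together from their group means (r from 0.31 to 0.56 over 12 checks). The numbers were therefore taken as pairing in an alternative fit only. The main fit held no block, so such shared deviations stayed in its spread. The best match was an array's own number in 0 of 12 checks, and always the other of replicates 1 and 2 or of 3 and 4. In the knockdown arm r was 0. Alternatives were another normalization, centring, variance model, filter on dim probe sets, 1 probe set per gene, the arm's arrays alone, replicate blocks and leaving out single arrays. Promoters are RefSeq sequence of GRCm38.p6; 8 of the 10 members matched.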

Additional observations from a re-analysis of the deposited data

Results flagged for a closer look

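Of 39 groups of 4 arrays, 3 held an array far from the others by Dixon's criterion (the gap to the next array over the group's range), and chance alone marks about 5% of such groups. On the arrays labelled Tgif1 OE, replicate 2 was highest for Lgr5 (4.37, gap over range 0.905) and lowest for Ctnnb1 at 1430533_a_at (7.60, 0.916), and replicate 1 was lowest for Axin2 at 1436845_at (6.50, 0.923).

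The knockdown effect and the effect on the arrays labelled Tgif1 OE differed by limma's test of the difference for Notum (-0.98, adjusted p = 0.00507), Lef1 (-1.43, adjusted p = 0.00364), Sp5 (-2.10, adjusted p = 0.0157) and Tcf7l1 (-0.89 at 1436207_at and -0.95 at 1450117_at). For Ctnnb1 they differed the other way (1.49 at 1430533_a_at and 0.64 at 1450008_a_at). Wnt3 differed between the arrays labelled Tgif1 OE and Tgif2 OE (-0.39, adjusted p = 0.0248).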

How the results depend on the processing

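Over the alternatives, 965 member results kept their direction and their call or lack of one, 26 lost a call and 31 gained one. A further 51 changed direction with no call before or after, and 0 changed direction with a call. With 1 probe set per gene, 2 members were called in the knockdown and 2 on the arrays labelled Tgif1 OE (4 each before), and 4 for the difference of their effects (7 before); fewer features are tested there. For Tgif2 OE against BirA control the 4 calls became 2 without the dimmest 33.3% of probe sets, 2 in the arm's arrays alone and 7 with a random block of replicates 1-2 and 3-4. For Tgif1 OE against Tgif2 OE the 1 call became 4 as deposited, 0 without that dimmest part (Wnt3 is in it), 4 with the replicate block, 5 with the random block and 4 in replicates 1 and 2 alone. Leaving out single arrays gave 3 to 4 calls in the knockdown, 2 to 3 for Tgif2 OE, 0 to 1 for Tgif1 OE against Tgif2 OE and 6 to 8 for the difference of effects. Over all probe sets, the knockdown's 4694 calls fell to 2979 without Tgif1 KD replicate 1 and 2932 without shControl replicate 2. The 1726 calls between the overexpression groups became 3847 as deposited (10.4% higher, against 49.8%), 3054 with the replicate block, 3594 with the random block, 2679 in replicates 1 and 2 alone and 1118 without Tgif2 OE replicate 1. The 5165 for the difference of effects became 3418 with 1 probe set per gene. For Tgif2 OE against BirA control 80% of calls were higher as deposited, against 51.2%. In the knockdown arm, whose numbers did not pair, the replicate block called Axin2 (-0.309, adjusted p = 0.0183) and Sp5 (-0.511, adjusted p = 0.0411). The arm's arrays alone could not give the difference of effects. Elsewhere the cause was not tested. The dim probe sets of Wnt3, Lgr5, Dkk1, Lef1 and 1421341_at of Axin2 may understate changes.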
